A study of Capra hircus with 18 samples.

Results

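The genes followed here in goat blood were grouped as genes of T cell and natural killer (NK) cell signalling: CD3E, LCK, CD5, TNFRSF25, NCR3 and ACAP1. For ACAP1 the values below go against that grouping: it was not lower at 180 min with the T cell genes, and other genes were closest to it in pattern. The genes were picked by gene name and make up 6 of the 1557 genes that appear in the deposited tables. Of these, 5 stood among the 1247 genes listed for 180 min of transport against control, and 1, NCR3, stood among the 430 genes listed for 30 min against control. No gene of the set was in both tables, so CD3E, LCK, CD5, TNFRSF25 and ACAP1 have no value at 30 min here, and NCR3 has none at 180 min.

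T cells recognise antigen through a receptor whose CD3 chains carry the signalling tails, and the kinase LCK phosphorylates those tails when the receptor is engaged. Other surface proteins set the strength of that signal, either as brakes or as costimulators. NK cells carry no such antigen receptor and are switched on by the balance of activating and inhibitory receptors on their surface. Blood holds these lymphocytes beside neutrophils, monocytes and B cells, and stress hormones such as cortisol are known to shift the proportions of circulating leukocytes.

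The goats were uncastrated Spanish males 8 months of age whose feed was withheld overnight. The control group was held in pens (7 goats), another group was moved by trailer for 30 min, about 50 km (4 goats), and the last was moved for 180 min, about 200 km (7 goats). Blood for RNA was drawn after transport, 1 library was made per goat, and each goat is called here by the number in its label. The experiment ran on more than a single day, the labels do not say which goats moved on which day, and the part of the day in any difference was not tested. Because the tables hold only genes that the authors had called at an unadjusted p under 0.05, each gene had already been listed on the goats tested here, and every p-value below is a description of the spread between goats, not independent evidence.

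Libraries differed in depth. The effective library size, the read total behind the deposited FPKM (fragments scaled by gene length and library size), ran from 10443023 to 39473244 in control goats, from 13992574 to 22855051 at 30 min and from 11290309 to 34125715 at 180 min. Goat 10 of the 180 min group stood apart: 26.2% of its reads fell on the 1247 listed genes, against 7.93 to 14.3% in the other goats of its group, and it held the highest of all 14 values in 432 listed genes and the lowest in 412. It also had the smallest library of its group. The differences at 180 min were therefore also computed without goat 10.

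Of the 5 genes listed at 180 min, CD3E, LCK, CD5 and TNFRSF25 were lower after transport, at 50.4 to 59.8% of the control mean, and ACAP1 had a higher mean, with 53.2% of the group's summed value in goat 10. The values used are normalized counts, the reads on a gene divided by the deposited size factor of the goat. Differences between groups are differences of mean log2(normalized count + 1), with an exact two-sided permutation test over all 3432 splits of the 14 goats (smallest possible p 0.000583). The edgeR quasi-likelihood test was fitted to the counts of every listed gene, and its p was adjusted over the table. In RNA of whole blood, fewer cells of a type and less RNA per cell cannot be told apart. The authors also counted leukocytes and reported fewer lymphocytes and more neutrophils at 180 min than in control goats. Those counts were not used here.

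CD3E encodes the epsilon chain of the CD3 complex, the signalling part of the T cell receptor (ENSCHIG00000012455; chromosome 15, 53321686 to 53327654, minus strand; the genome build is not given in the sources used here). Control goats had normalized counts of 4699 (goat 1), 2830 (goat 3), 3826 (goat 4), 4836 (goat 6), 4034 (goat 7), 5434 (goat 8) and 4017 (goat 9). After 180 min the values were 2078 (goat 10), 2468 (goat 11), 3038 (goat 13), 2151 (goat 14), 1785 (goat 15), 2006 (goat 16) and 3798 (goat 17). The groups overlapped through goats 13 and 17, whereas the other 5 transported goats lay below the lowest control, goat 3, and all 7 lay below the control median. The mean fell from 4240 ± 841 to 2475 ± 710 (SD, n = 7 each), 58.4% of control. The log2 difference was -0.80 (SE 0.18, exact permutation p = 0.0035), and the adjusted p in edgeR was 0.0353. Without goat 10 the transported mean was 2541 ± 754, or 59.9% of control.

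LCK encodes the Src-family kinase that phosphorylates the CD3 tails (ENSCHIG00000013860; chromosome 2, 14416853 to 14441869, plus strand). Normalized counts in control goats 1, 3, 4, 6, 7, 8 and 9 were 2423, 1817, 2795, 2784, 2897, 2553 and 1752. In transported goats 10, 11, 13, 14, 15, 16 and 17 they were 1083, 1394, 1635, 1456, 1454, 1443 and 1709. The groups did not overlap, but the gap was narrow, with goat 17 just under control goat 9. Goats 11, 14, 15 and 16 sat within a few percent of each other, and goat 10 was the lowest. LCK fell from 2432 ± 470 to 1453 ± 199 (SD, n = 7 each), 59.8% of control, a log2 difference of -0.73 (SE 0.14, exact permutation p = 0.000583, the smallest the design allows). The adjusted p in edgeR was 0.0307. Without goat 10 the transported mean was 1515 ± 126 and the log2 difference -0.66.

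CD5 encodes a scavenger-type surface receptor that dampens T cell receptor signalling (ENSCHIG00000005294; chromosome 29, 36659587 to 36681270, plus strand). The 7 control goats, in the same order, had normalized counts of 1491, 1054, 1630, 2258, 1974, 1206 and 1199. The 7 transported goats had 194, 773, 825, 1009, 894, 913 and 997. The highest transported value, in goat 14, lay below the lowest control value, in goat 3, and goat 10 lay far below the other transported goats. CD5 fell from 1545 ± 443 to 800 ± 281 (SD, n = 7 each), 51.8% of control, with a log2 difference of -1.05 (SE 0.35, exact permutation p = 0.000583). The adjusted p in edgeR was 0.0385. Without goat 10 the transported mean was 902 ± 93.1, 58.4% of control, and the log2 difference shrank to -0.73 (exact permutation p = 0.00117).

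TNFRSF25, also called DR3, is a death-domain receptor of the TNF receptor family that costimulates T cells (ENSCHIG00000010592; chromosome 16, 45441319 to 45445028, plus strand). Control normalized counts were 787, 839, 830, 723, 925, 807 and 1025, the tightest control group of the 6 genes. After 180 min they were 224, 386, 622, 447, 353, 350 and 608. The groups did not overlap: goats 13 and 17, the highest transported goats, were below control goat 6, the lowest. TNFRSF25 fell from 848 ± 98.9 to 427 ± 145 (SD, n = 7 each), 50.4% of control, with a log2 difference of -1.05 (SE 0.20, exact permutation p = 0.000583). Its adjusted p in edgeR, 0.0206, was the lowest of the 5 genes listed at 180 min, and without goat 10 the mean was 461 ± 124, or 54.3% of control.

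ACAP1 encodes a GTPase-activating protein for the small GTPase Arf6, which acts in the recycling of endocytosed membrane proteins (ENSCHIG00000017749; chromosome 19, 26849672 to 26866831, plus strand). Control normalized counts were 3774, 5090, 2590, 2417, 4187, 5351 and 5169. Transported goats had 32371, 8075, 5325, 3516, 3275, 3442 and 4877. Only goats 10 and 11 exceeded the highest control, goats 14, 15 and 16 were below the control median, and goat 10 lay far above every other goat. The means were 4083 ± 1219 and 8697 ± 10573 (SD, n = 7 each), and the log2 difference was 0.61 (SE 0.48, exact permutation p = 0.234). edgeR gave an unadjusted p of 0.0434 and an adjusted p of 0.0584. With TMM factors, computed from the listed genes only, these were 0.228 and 0.270. The adjusted p was 0.0397 in DESeq2 and 0.0486 in edgeR without goat 14, both of which called ACAP1 higher. Without goat 10 the transported mean was 4752 ± 1834, 1.16 times control, with a log2 difference of 0.20 (exact permutation p = 0.474) and an edgeR adjusted p of 0.443. Without goat 10 neither the permutation test nor edgeR called ACAP1.

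**Figure D1:**
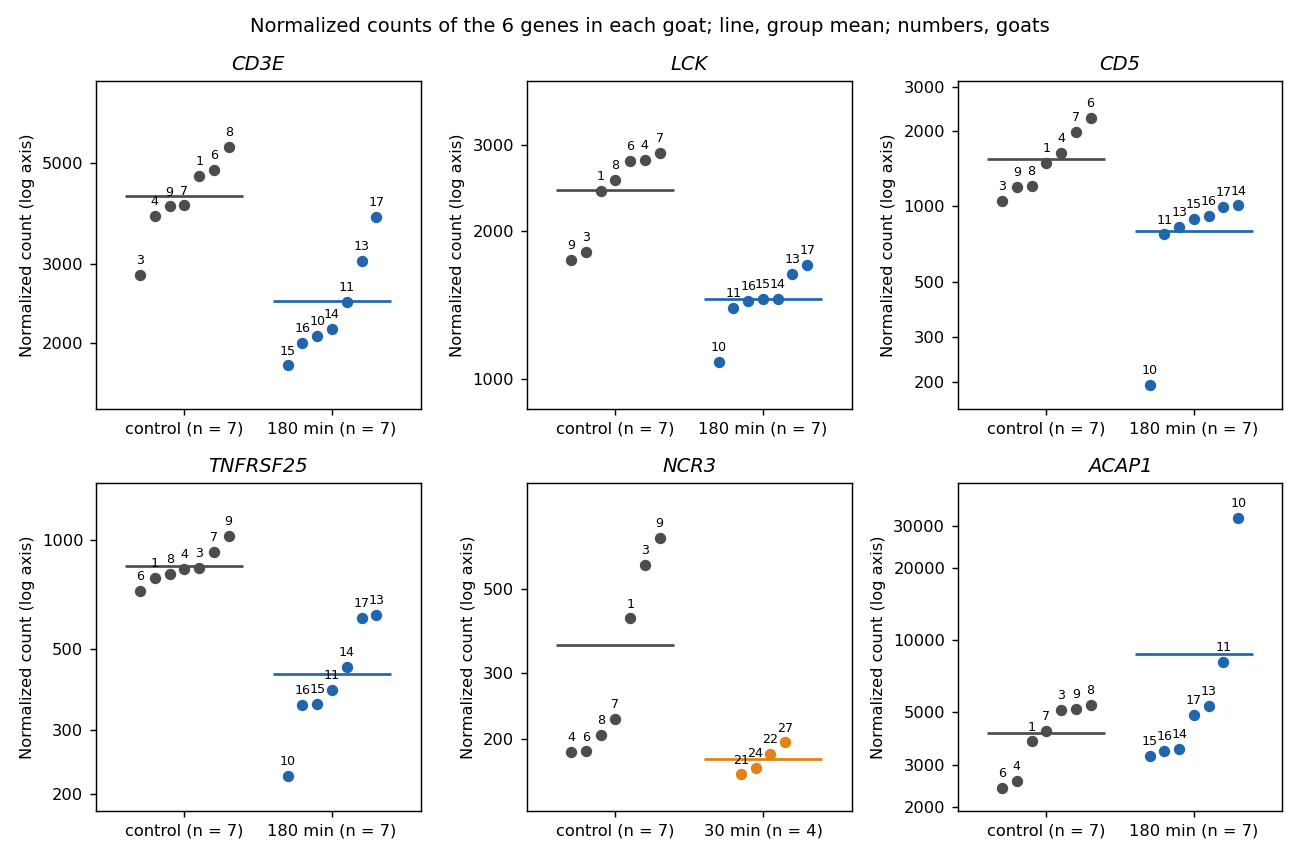
Normalized counts (log axis) of the 6 genes, 1 point per goat with the goat's number, in control goats (grey), goats transported for 180 min (blue) and goats transported for 30 min (orange); the line is the group mean. LCK, CD5 and TNFRSF25 do not overlap between groups, CD3E overlaps through goats 13 and 17, NCR3 overlaps through 1 transported goat (goat 27, 196), and ACAP1 holds a value of 32371 in goat 10.

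By the exact permutation test, 4 of the 5 genes were lower at an unadjusted p under 0.05, beside 25.7% of the 1247 listed genes. With edgeR all 5 had an unadjusted p under 0.05, beside 81.6% of listed genes, so that count says nothing particular about them. Groups without overlap and lower after transport were seen in 3 of the 5 genes (LCK, CD5 and TNFRSF25), beside 1.20% of all listed genes. A log2 difference below 0 was found in 4 of 5, beside 40.6% of the table. The falls of the 4 genes (-0.73 to -1.05) were smaller than the median of all listed genes with a difference below 0, which was -1.28. With 1 goat left out, the adjusted p in edgeR stayed under 0.05 for TNFRSF25 in every case. It passed 0.05 for LCK without control goat 1, 4 or 6 (at most 0.0570), and for CD3E without goat 15 or 16 or control goat 1, 4, 6 or 8 (at most 0.0575). For CD5 it did so without goat 11, 15 or 16 or control goat 1, 4, 6, 7 or 8 (at most 0.0619). TMM factors in place of the deposited size factors could be computed only from the listed genes, which were listed for differing. With them the log2 fold change in edgeR went from -0.78 to -1.23 for CD3E and from -0.74 to -1.23 for LCK. It went from -0.95 to -1.42 for CD5 and from -0.99 to -1.38 for TNFRSF25. All 4 were still called, but with such factors neither the calls nor the larger falls are a check on these genes.

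The transported goats were not alike. Goat 10 had the lowest value of its group for CD5, LCK and TNFRSF25, and goat 15 had the lowest for CD3E and ACAP1. Set against the mean log2 level of the control goats, goat 10 stood at -2.94 for CD5, -1.91 for TNFRSF25, -1.14 for LCK and -1.0 for CD3E, but at 3.05 for ACAP1. Goats 13 and 17 were the least shifted for CD3E, LCK and TNFRSF25. In goat 17, CD3E stood at -0.13, LCK at -0.48 and TNFRSF25 at -0.47. In goats 14, 15 and 16 all 5 genes were below the control mean, ACAP1 only slightly, at -0.15, -0.26 and -0.18.

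**Figure D2:**
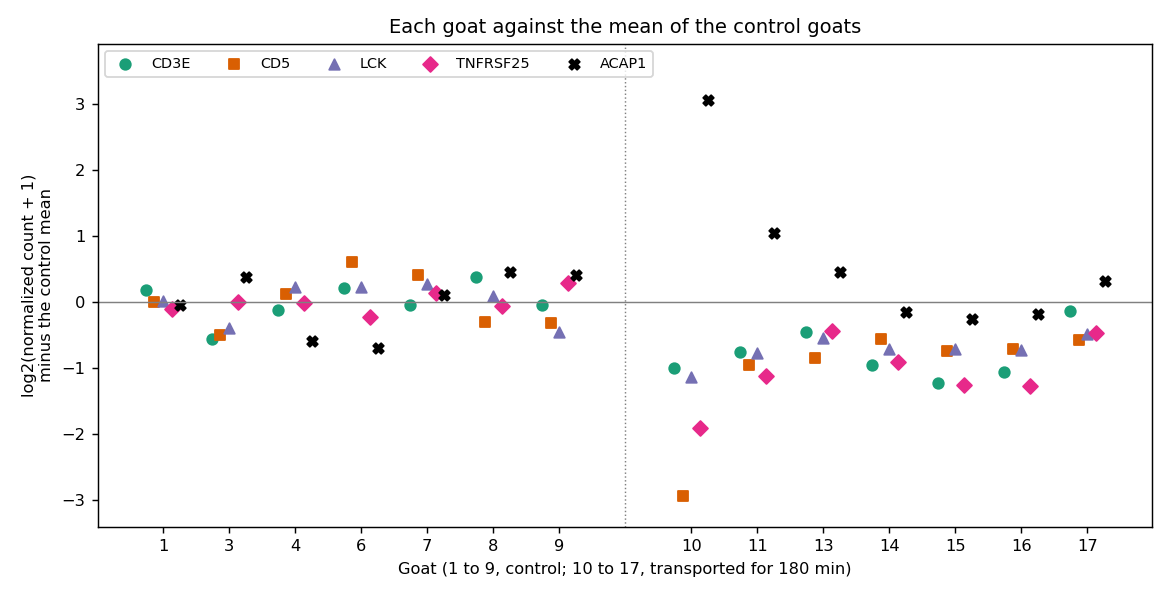
For each goat (x axis), the log2(normalized count + 1) of 5 genes less the mean of the control goats (y axis); each symbol is 1 gene, and the dotted line separates control goats from goats transported for 180 min. CD3E, CD5, LCK and TNFRSF25 lie below 0 in every transported goat, and goat 10 has both the lowest CD5 (-2.94) and the highest ACAP1 (3.05).

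NCR3 encodes NKp30, an activating receptor of NK cells (ENSCHIG00000022732; chromosome 23, 22257192 to 22259643, minus strand). In the 30 min table, control normalized counts were 418 (goat 1), 578 (goat 3), 185 (goat 4), 185 (goat 6), 226 (goat 7), 205 (goat 8) and 684 (goat 9). Goats transported for 30 min had 161 (goat 21), 182 (goat 22), 167 (goat 24) and 196 (goat 27). The control goats fell into a high range, goats 1, 3 and 9, and a low range, goats 4, 6, 7 and 8, whereas the transported goats were close together within or under the low range. Of the 4 transported goats 3 lay below the lowest control, all 4 lay below the control median, and the groups overlapped through goat 27.

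The mean of NCR3 was 354 ± 208 in controls (SD, n = 7) and 177 ± 15.5 at 30 min (n = 4), 49.8% of control. Its log2 difference was -0.80 (SE 0.31), with an exact permutation p of 0.0485 over 330 splits, where the smallest possible is 0.00303 and 20.7% of the 430 listed genes were lower at a p under 0.05. edgeR gave an unadjusted p of 0.0244 and an adjusted p of 0.0673, DESeq2 with the same size factors gave an adjusted p of 0.0439, and 44.9% of the listed genes were lower at an unadjusted p under 0.05. The median log2 difference of all listed genes at 30 min was -0.92, more negative than that of NCR3. The permutation p exceeded 0.05 when any of the 4 transported goats or control goat 1, 3, 7, 8 or 9 was left out (p = 0.0524 to 0.148, log2 difference -0.90 to -0.61). The exact permutation p stayed below only without control goat 4 or 6 (p = 0.0429 each).

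**Figure D3:**
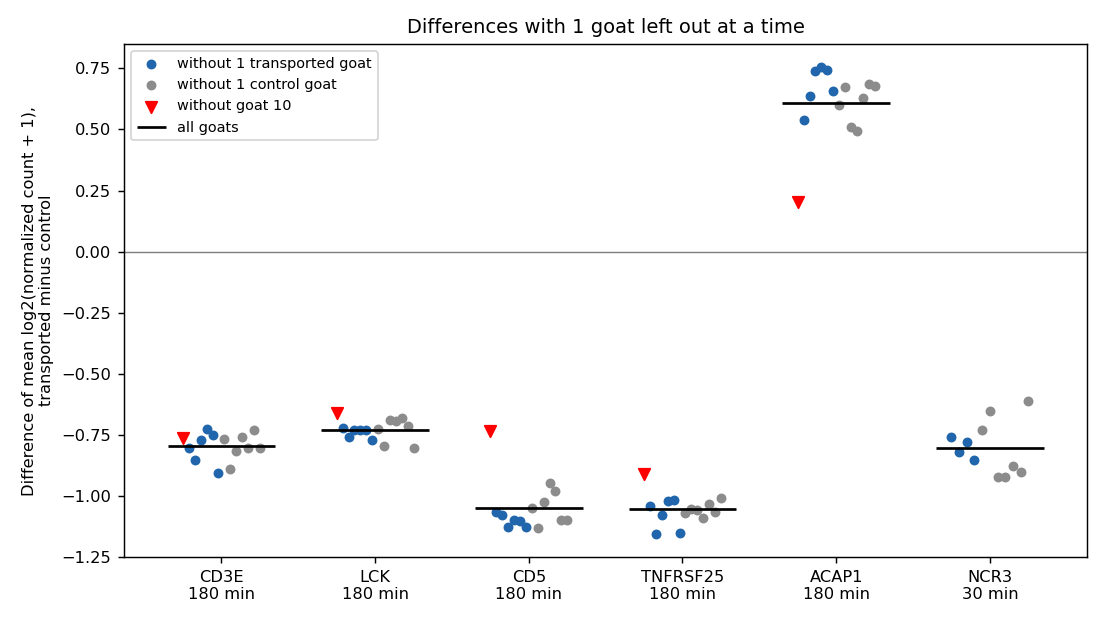
Log2 difference between transported and control goats for each gene with all goats (line) and with 1 goat left out at a time (points; blue, a transported goat; grey, a control goat; red triangle, goat 10). CD3E, LCK, CD5 and TNFRSF25 stay between -1.16 and -0.66 in every case, ACAP1 drops to 0.20 without goat 10, and NCR3 ranges from -0.92 to -0.61.

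Levels of different genes were compared on the FPKM scale, which divides by gene length. In control goats CD3E had the highest median FPKM, 335 (range 226 to 424), and its range lay above that of every other gene of the set. TNFRSF25 followed at 30.1 (24.6 to 40.9), CD5 at 29.6 (21.7 to 41.5) and ACAP1 at 24.7 (14.1 to 35.4). LCK and NCR3 had the lowest medians, both 17.9, with ranges of 13.2 to 18.9 and 14.5 to 56.1. From TNFRSF25 down, neighbours in this order overlapped and were not separated beyond the spread between goats. The gene lengths behind these FPKM in the tables ran from 625 bases for CD3E to 7620 for ACAP1, so the order rests on those lengths as well. At 180 min the median FPKM was 166 for CD3E, 17.9 for CD5, 15.4 for TNFRSF25, 10.01 for LCK and 33.2 for ACAP1, and at 30 min it was 14.4 for NCR3. Reads per library ranged from 108 for NCR3 in a control goat to 18196 for ACAP1 in the 180 min group, and no gene of the set was at 0 in any goat.

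To ask whether the genes changed by different amounts, the log2 ratio of each pair was taken within a goat and compared between control and 180 min, 10 pairs in all, with exact permutation p-values adjusted over the 10. Among the 4 lower genes, none of the 6 pairs passed (adjusted p = 0.247 to 0.985). The widest of these differences was 0.32 (SE 0.20) between LCK and TNFRSF25, whose fall was the larger. CD3E and LCK differed by -0.07 (SE 0.16), and CD5 and TNFRSF25 by 0.01 (SE 0.29). Even the 0.32 between LCK and TNFRSF25, which exceeded its SE of 0.20, did not pass. Differences of such a size could therefore go undetected with these goats.

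Against ACAP1 the log2 changes of all 4 genes were lower. The difference was -1.66 (SE 0.60, adjusted p = 0.00583 by the exact permutation test) for TNFRSF25 and -1.41 (SE 0.52, adjusted p = 0.0262) for CD3E. It was -1.34 (SE 0.57, adjusted p = 0.0524) for LCK and -1.66 (SE 0.82, adjusted p = 0.0554) for CD5, which did not pass. The TNFRSF25 to ACAP1 ratio did not overlap between the groups. Without goat 10 it still did not, with a difference of -1.12 (SE 0.27, adjusted p = 0.0117), and CD3E against ACAP1 remained at -0.96 (SE 0.29, adjusted p = 0.0495). LCK and CD5 against ACAP1 shrank without goat 10 to -0.86 (SE 0.34, adjusted p = 0.107) and -0.94 (SE 0.40, adjusted p = 0.109), and again did not pass. The CD3E pair did not pass without control goat 1 (adjusted p = 0.0524), 4 (0.0524) or 6 (0.0612).

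**Figure D4:**
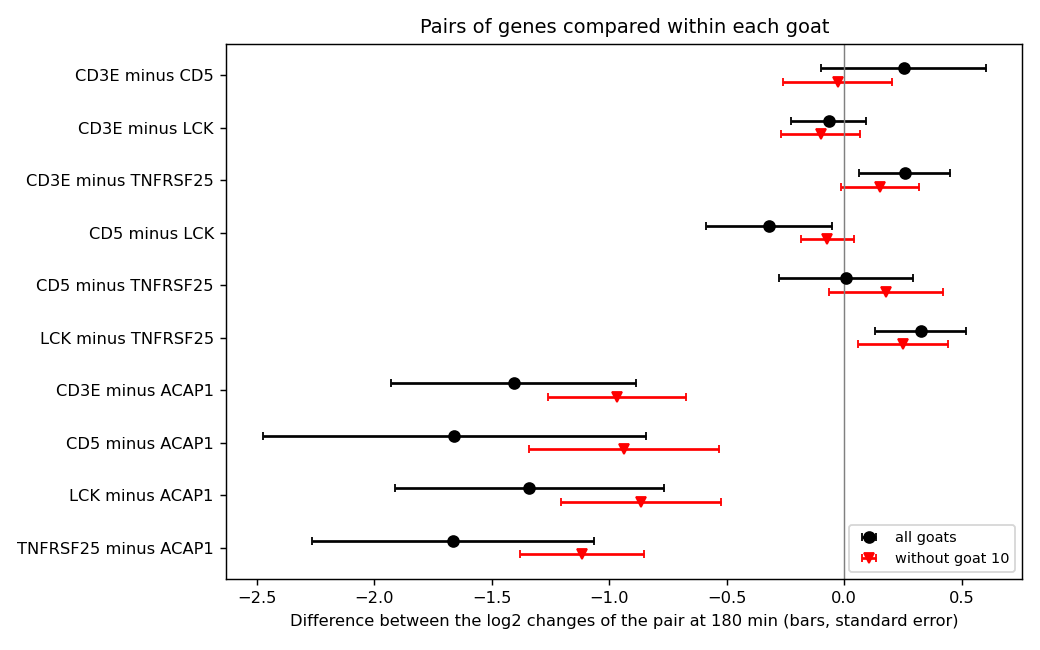
Difference between the log2 changes of the 2 genes of a pair at 180 min, the first named minus the second, with all goats (black) and without goat 10 (red); bars are standard errors. Pairs among CD3E, CD5, LCK and TNFRSF25 lie near 0, and pairs with ACAP1 lie between -1.66 and -0.86.

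Variation among goats of the same group was compared over 25 pairs of genes, 15 in controls and 10 at 180 min, 7 goats each, with exact permutation over 5040 pairings. No pair passed an adjusted p of 0.05, the smallest being 0.0719, and 7 pairs had an unadjusted p under 0.05. At 180 min LCK and TNFRSF25 varied together, with Pearson r = 0.95 (permutation p = 0.00575, adjusted p = 0.0719) and Spearman rho = 0.86 (permutation p = 0.0238, adjusted p = 0.300). Leaving out the 2 goats farthest from the median gave r = 0.88. In controls the same pair had r = -0.50 (permutation p = 0.246, adjusted p = 0.323) and rho = -0.21 (permutation p = 0.662, adjusted p = 0.752). CD5 and ACAP1 varied in opposite directions at 180 min (r = -0.95, permutation p = 0.0109, adjusted p = 0.0909; rho = -0.68, permutation p = 0.110, adjusted p = 0.342), and r became -0.27 without the 2 farthest goats, so this relation rested on them. In controls CD5 and LCK gave r = 0.80 (permutation p = 0.0373, adjusted p = 0.169) and rho = 0.82 (permutation p = 0.0341, adjusted p = 0.300), and r was 0.73 without the 2 farthest goats. At 180 min that pair gave r = 0.88 (permutation p = 0.0413, adjusted p = 0.169) and rho = 0.68 (permutation p = 0.110, adjusted p = 0.342), but -0.04 without the 2 farthest goats. CD3E and TNFRSF25 at 180 min gave r = 0.76 (permutation p = 0.0474, adjusted p = 0.169) and rho = 0.79 (permutation p = 0.0480, adjusted p = 0.300), and 0.20 without them, so both relations rested on those goats. In controls ACAP1 ran against CD5, with r = -0.79 (permutation p = 0.0454, adjusted p = 0.169) and rho = -0.75 (permutation p = 0.0663, adjusted p = 0.331), and -0.58 without the 2 farthest goats. The pairs with an unadjusted p under 0.05 include LCK and NCR3 in controls, with the lowest LCK values in goats 3 and 9, the goats with the highest NCR3. No r is given for NCR3, since its control values fell into 2 separate ranges, and the relation was not tested within them.

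By a rule on likeness of pattern, the 8 named genes closest to the mean of the 5 genes were sought among 662 genes of the 180 min table, over 14 goats with group means taken out (median r of all, -0.29). They were TUBB (r = 0.79), TRDC (0.79), CD3D (0.77), UBASH3A (0.77), GPX7 (0.76), DENR (0.74), CD247 (0.73) and CD180 (0.69). Without goat 10 only UBASH3A (0.73), TRDC (0.70) and TUBB (0.69) were still among the 8 closest. TRDC is the constant region of the T cell receptor delta chain, carried by gamma delta T cells. Its normalized counts had a lowest value, median and highest value of 1352, 3018 and 4377 in controls and 306, 1445 and 1755 at 180 min. The log2 difference of TRDC was -1.25 (SE 0.40, exact permutation p = 0.00466), with overlapping groups, and -0.93 without goat 10 (exact permutation p = 0.00758). Genes closest to the 4 lower genes alone, a choice made after seeing the data, began with CD3D (0.89), CD247 (0.88) and TRDC (0.87). Those closest to ACAP1 were others: LMF2 (0.99), DGAT1 (0.98) and UBA1 (0.97). Without goat 10 CD3D, CD247 and TRDC had r of 0.76, 0.77 and 0.68 with the 4 lower genes, and LMF2, DGAT1 and UBA1 had 0.95, 0.95 and 0.91 with ACAP1.

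The other chains of the T cell receptor complex were listed at 180 min as well. CD3D, the delta chain, had control normalized counts with a lowest value, median and highest value of 632, 1515 and 1974, and 185, 764 and 1117 after transport, a log2 difference of -0.99 (SE 0.40, exact permutation p = 0.0198). CD247, the zeta chain, had 599, 1176 and 1568 against 133, 699 and 766, a difference of -1.03 (SE 0.40, exact permutation p = 0.00932). CD3G, the gamma chain, had 288, 986 and 2134 against 64.0, 427 and 764, a difference of -1.04 (SE 0.62, exact permutation p = 0.115). The groups of all 3 overlapped, with goats spread more widely than for CD3E. Goat 10 had the lowest value of each chain, and without it the log2 differences were -0.69 for CD3D (exact permutation p = 0.0385), -0.71 for CD247 (exact permutation p = 0.0204) and -0.62 for CD3G (exact permutation p = 0.233). Set within each goat against CD3E, the log2 changes of CD3D, CD3G and CD247 differed by -0.20 (SE 0.33), -0.24 (SE 0.62) and -0.23 (SE 0.35). None of the 3 passed (adjusted p = 0.705 each, exact permutation test), and without goat 10 the differences were 0.07, 0.14 and 0.05 (adjusted p = 0.836 each), with the sign turned.

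A list of 53 other T cell genes, among them receptor chains, adaptors, kinases, transcription factors and homing receptors, had 9 genes in the 180 min table. All 9 were lower at an unadjusted edgeR p under 0.05, beside 29.7% of all listed genes lower by that rule. Their median log2 difference was -0.99, beside 0.68 for all listed genes. The permutation test called 7 of the 9, beside 25.7% of all listed genes lower by that test, and 1, UBASH3A, did not overlap, beside 1.20%. Without goat 10 edgeR called 8, the permutation test called 6 and the median was -0.80. Without control goat 4 edgeR called 6. The other 44 genes of the list, CD2, CD4, CD8A and ZAP70 among them, have no values here.

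UBASH3A, a phosphatase-like brake on T cell receptor signalling, had a lowest value, median and highest value of 282, 385 and 454 in controls and 125, 252 and 278 at 180 min (log2 difference -0.89, SE 0.21, exact permutation p = 0.000583). CD6, a relative of CD5 that lies beside it in the RefSeq gene order, had 886, 1444 and 1758 against 825, 912 and 1339 (log2 difference -0.53, SE 0.15, exact permutation p = 0.00932). PRKCQ, the protein kinase C isoform of the T cell synapse, had a log2 difference of -1.15 (SE 0.43, exact permutation p = 0.00991). These 3 genes sit at different steps around the receptor, and CD6 had the smallest fall of the list. CD96, a receptor of T and NK cells, had -0.93 (SE 0.25, exact permutation p = 0.0035) and TXK, a Tec-family kinase, -0.92 (SE 0.41, exact permutation p = 0.046). SH2D1A, the adaptor SAP, had a log2 difference of -1.14 (SE 0.57) that the permutation test did not call (exact p = 0.0676). Without goat 10 the log2 differences were -0.80 for UBASH3A, -0.50 for CD6, -0.82 for PRKCQ, -0.92 for CD96, -0.88 for TXK and -0.80 for SH2D1A, and TXK no longer passed the permutation test (exact p = 0.0728).

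The NK and cytotoxic list held 34 genes, of which 4 were listed at 180 min and none at 30 min beside NCR3. They moved in both directions. IL18RAP, a chain of the interleukin 18 receptor, had a lowest value, median and highest value of 95.8, 161 and 412 in controls and 405, 1825 and 7395 at 180 min (log2 difference 3.20, SE 0.64, exact permutation p = 0.00117). NKG7, a cytotoxic granule protein, had 1053, 1343 and 2252 against 1992, 2480 and 3305 (0.88, SE 0.18, exact permutation p = 0.00175). IL12RB1, a chain of the interleukin 12 receptor, was lower (-0.79, SE 0.22, exact permutation p = 0.00583), and so was TXK, which the T cell list also holds. With goat 10 left out the log2 differences were 3.42 for IL18RAP, 0.83 for NKG7 and -0.74 for IL12RB1, each still called by permutation and edgeR. The ligand genes of NCR3, BAG6 and NCR3LG1, were in neither table.

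Relatives of TNFRSF25 and ACAP1 were few. Of 23 genes of the TNF receptor family and its signalling, 3 were listed at 180 min: LTBR (log2 difference 1.14, SE 0.32) and TNFRSF1A (0.83, SE 0.23) were higher, with exact permutation p-values of 0.00408 and 0.00466. TNFRSF11A, listed at a lowest value of 0 in transported goats, had a log2 difference of -1.94 (SE 0.73, exact permutation p = 0.0233; edgeR unadjusted p = 0.0978). Of 20 Arf GTPase-activating proteins and partners, ARAP3 was higher (1.22, SE 0.36, exact permutation p = 0.00699). AGAP1 had a log2 difference of -2.03 (SE 0.93, exact permutation p = 0.0431), with an unadjusted p of 0.0569 in edgeR. Without goat 10 LTBR, TNFRSF1A and ARAP3 were still called (log2 differences of at least 0.81), TNFRSF11A was at -1.59 (exact permutation p = 0.0425) and AGAP1 at -1.52 (exact permutation p = 0.0775). Among TNFRSF25 and these 23 genes, which are not the whole receptor family, only TNFRSF25 had a fall that both tests called.

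The listed neutrophil and monocyte markers were higher at 180 min, where the listed T cell genes were lower. Of 21 neutrophil markers, 7 were listed and all 7 were higher in edgeR and by permutation, beside 52.0 and 38.3% of all listed genes (IL1R2, VNN1, ALPL, LTF, CSF3R, S100A12 and S100A8; median log2 difference 1.90). Their summed normalized count ran from 18824 to 78097 (median 44137) in controls and from 61402 to 189132 (median 106944) at 180 min, highest in goat 10. Of 13 monocyte markers 5 were listed, all higher in edgeR and 3 by permutation, with sums of 3741 to 11499 in controls and 11244 to 31933 at 180 min. None of these 12 markers was at 0 in any goat. With goat 10 left out the neutrophil sum at 180 min was at most 137861, edgeR and the permutation test each called 6 of the 7, S100A8 being lost, and edgeR called 3 of the 5 monocyte markers. The 9 T cell genes summed to 3873 to 9919 (median 6656) in controls and 1687 to 4587 (median 3855) at 180 min, lowest in goat 10, the next goat having 3471.

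Other markers were fewer. Of 19 B cell markers only MS4A1 was listed at 180 min (log2 difference -0.57, SE 0.21, exact permutation p = 0.0122), and edgeR did not call it (unadjusted p = 0.0520). Of 12 platelet markers 3 were listed, all with a higher mean. edgeR and the permutation test each called 2 of them, beside 52.0 and 38.3% of all listed genes. Without goat 10 edgeR called 1 and the permutation test 0. GP1BB had a normalized count of 20030 in goat 10 against at most 3269 in controls and 3032 in the other transported goats (exact permutation p = 0.206). SELP was at 0 in 3 control goats and 1 transported goat. Of 13 red cell markers only SPTB was listed, at 0 in 1 control goat and 3 transported goats. Its normalized count was at most 65.9 in controls and 21.3 at 180 min (exact permutation p = 0.0385, or 0.0699 without goat 10). None of 9 eosinophil markers was listed. What the shift of neutrophil and monocyte markers, or the platelet values of goat 10, contributes to the lower levels of CD3E, LCK, CD5 and TNFRSF25 was not tested.

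At 30 min, where NCR3 was listed, markers of other blood cells were fewer. Of the neutrophil markers only VNN1 was listed (log2 difference 1.24, SE 0.42, exact permutation p = 0.00909), where 25.8% of all listed genes were higher in edgeR and 26.0% by permutation, and no monocyte, platelet, red cell or eosinophil marker was. All 6 listed B cell markers were lower at an unadjusted edgeR p under 0.05 (median log2 difference -0.77), with adjusted p-values of 0.0673 to 0.0682, and 2 of them by permutation, beside 44.9 and 20.7% of all listed genes, with sums of 9103 to 28976 in controls and 8692 to 12195 at 30 min. Their part in the NCR3 values was not tested.

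**Figure D5:**
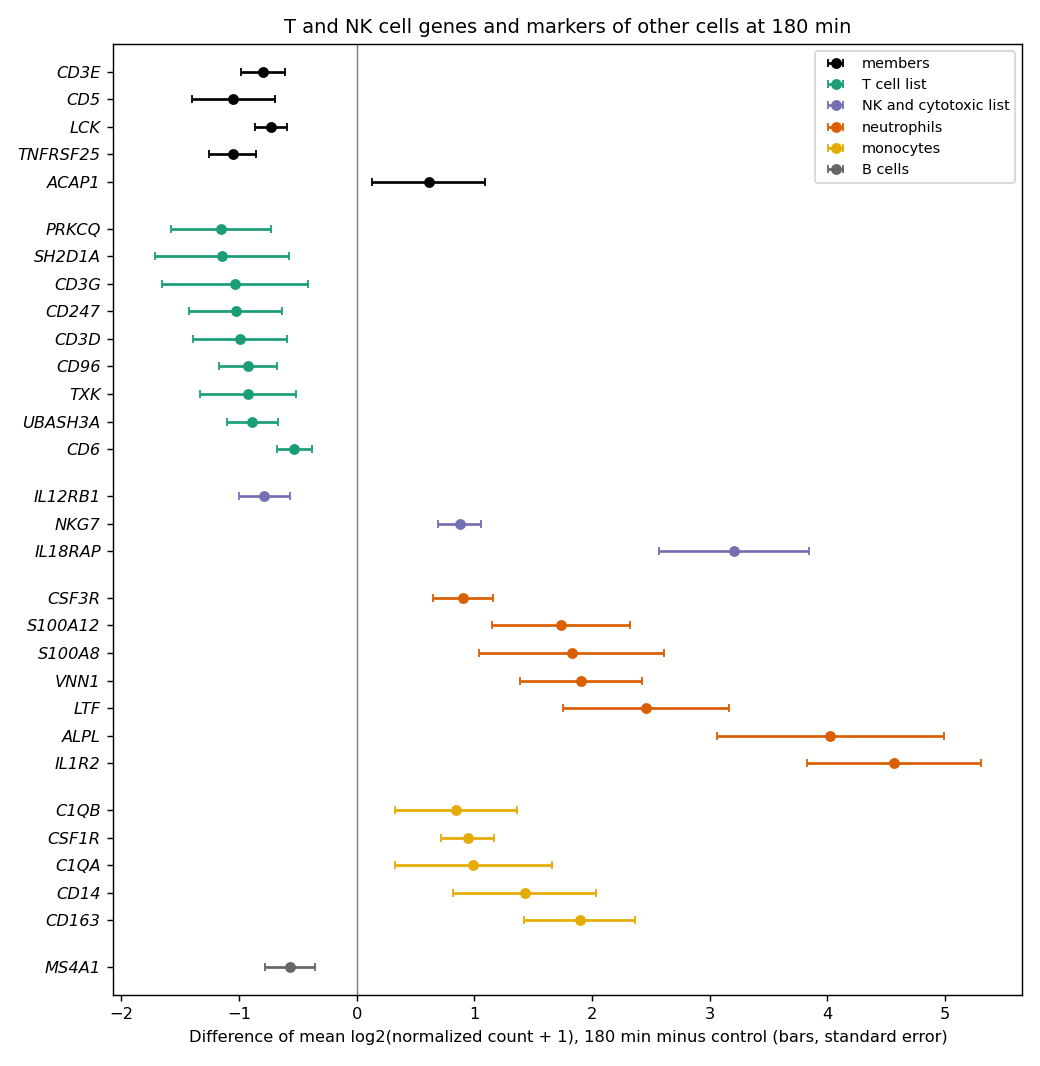
Log2 difference, 180 min minus control (x axis; bars, standard error; 7 goats per group), of the 5 genes of the set and of listed T cell, NK, neutrophil, monocyte and B cell genes. The T cell genes lie between -1.15 and -0.53 on the side of CD3E, CD5, LCK and TNFRSF25, the neutrophil and monocyte genes lie above 0, and the NK genes lie on both sides.

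The gene models bear on how reads were assigned. In the RefSeq gene order CD3D lies next to CD3E, CD6 next to CD5 and FAM167B next to LCK, and all 3 neighbours were listed. CD3D and CD6 were lower, whereas FAM167B had a log2 difference of 2.14 (SE 1.15, exact permutation p = 0.0857), or 1.56 without goat 10. LCK and ACAP1 spanned 25017 and 17160 bases in the tables against 20298 and 12823 in RefSeq, whose assembly may differ. CD3E and TNFRSF25 were shorter in the tables, 5969 and 3710 bases against 10653 and 5085, and the FPKM of CD3E rests on the 625 bases counted in its model. No source used here states that strand was used in counting, and reads of a gene and of an overlapping neighbour then cannot be told apart. Whether these differences in gene models touched the values of CD3E, LCK, TNFRSF25 or ACAP1 was not tested.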

How the data were processed

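Blood RNA was sequenced from 18 goats, assigned to groups by their labels. The authors cleaned reads with fastp and mapped them with HISAT2; the genome build and the counting tool are not given in the sources used here. The deposited counts are whole reads per gene. The normalized counts are the deposited signal, counts divided by the authors' size factor per goat, computed separately for each table. The deposited FPKM divide counts by gene length and effective library size. The authors' log2 fold change and adjusted p-value columns were not used, and their deposited p-value column was read only to test the row filter: all 430 and all 1247 rows lay under 0.05. In 119 and 308 rows no gene name was given.

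The 6 genes and the gene lists were chosen with earlier results of these data known. Named were the 6 genes, any listed gene of the lists, and the 8 genes of the 180 min table with the highest Pearson r to the mean of the set (mean normalized count of at least 50). Further genes were named after their values were seen, and the results without goat 10 were added then too. Values were tested as log2(normalized count + 1) by exact two-sided permutation over goats. The count test was edgeR's quasi-likelihood test with the deposited size factors, p adjusted over the table by Benjamini-Hochberg. It was fitted to listed genes only, so its estimate of spread rests on genes chosen for differing. Adjustment over the listed genes is no false discovery rate over all genes. The scripts were tested on simulated data with 200 changed genes. Over 69 pairs of goats of a group, at most 1.62% of genes (mean count of at least 10) had equal counts. Alternatives were pseudocounts of 0.1 and 10, other scalings, a mean of at least 10, Mann-Whitney, DESeq2, limma and leaving out each goat. R 4.3.3 with edgeR 4.0.16, DESeq2 1.42.0 and limma 3.58.1, and Python 3.11.15 (matplotlib 3.10.9, scipy 1.17.1, pandas 2.3.3, numpy 2.4.6) were used. Gene neighbours came from RefSeq (assembly ARS1.2), without coordinates. Some listed genes of the lists are not reported here.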

Additional observations from a re-analysis of the deposited data

Results flagged for a closer look

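In 12 groups of goats, each of the 6 genes in its control and its transported group, the gap between the most extreme goat and the next was set against the range of the group on the log2 scale. A ratio above Dixon's critical value stands out, and chance alone gives about 1 such group in 20. The ratio was 0.838 for CD5 at 180 min, where goat 10 was the lowest, and 0.606 for ACAP1 at 180 min, where goat 10 was the highest. Both belong to the same library. The normalized counts of goat 10 were 194 for CD5, beside 773 to 1009 in the other 6 goats, and 32371 for ACAP1, beside 3275 to 8075.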

How the results depend on the processing

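CD3E, LCK, CD5, TNFRSF25 and ACAP1 kept their direction and side of the permutation threshold in all 19 alternatives run for each. LCK, CD5 and TNFRSF25 did not overlap between groups, so leaving out a goat, another pseudocount or Mann-Whitney could not move them across it. For these genes those alternatives are no check. With 1 goat left out their log2 differences ranged from -0.91 to -0.72, -0.80 to -0.66, -1.13 to -0.73, -1.16 to -0.91 and 0.20 to 0.75. Median centring moved all differences by 0.69 at 30 min and -0.19 at 180 min. At both times the shift comes from genes listed for differing, so it is no check on any of the 6 genes. NCR3 was -0.75 (exact permutation p = 0.0727) with effective library sizes, -0.11 (p = 0.745) with median centring, whose shift comes from genes listed for differing and so says nothing on NCR3 itself, and -0.92 to -0.61 with 1 goat left out. Pairs that passed numbered 2, but 1 by Mann-Whitney and 1 to 4 with 1 goat left out: 4 without goat 14, 15 or 16, and 1 without control goat 1, 4 or 6. With 1 goat left out, CD3E against CD5 ranged from -0.028 (without goat 10) to 0.38, CD3E against LCK from -0.14 to 0.0066 (without goat 15) and CD5 against TNFRSF25 from -0.094 (without control goat 9) to 0.18. Listed genes at 30 min, 111 higher and 193 lower in edgeR, gave 68 to 102 and 72 to 204 with 1 goat left out, fewest in each direction without goat 21, and 105 lower in limma and 89 by permutation. At 180 min, 648 higher and 370 lower became 245 higher and 480 lower with TMM factors, which come from the listed genes only. The count of T cell list genes higher at 30 min was 1, but 0 with TMM, by permutation, and without goats 21, 27 or 1 (range 0 to 1). NK genes lower at 180 min were 1 to 2, with 1 left without control goat 4 or 7. The cause of these shifts was not tested. No paired analysis was possible because the groups share no goat numbers. A comparison of 30 min with 180 min was not run, since no gene of the set is in both tables. For NCR3, 4 transported goats and 130 to 228 reads in each of them (108 to 775 in controls) limit what can be shown, and counts cover counting error only.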
